A study of Mus musculus with 2 samples.

Results

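The Hox genes of the Hoxa, Hoxb, Hoxc and Hoxd clusters were described in single-cell transcriptomes of the mouse cardiac neural crest region. Members were all measured genes whose symbol is Hoxa, Hoxb, Hoxc or Hoxd followed only by a number, which gave 27 of 18131 genes. Those described by name are Hoxa2, Hoxa3, Hoxa4, Hoxa5, Hoxa7, Hoxa9 and Hoxa10, Hoxb1 to Hoxb9, Hoxc4, Hoxc5, Hoxc6, Hoxc8 and Hoxc9, and Hoxd1, Hoxd3, Hoxd8, Hoxd9 and Hoxd10. The 5 other Hox columns, antisense and additional transcripts, were kept apart. The rule used symbols only, so no measured value chose a single member, but it was set with earlier results of these data known.

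Hox genes encode homeodomain transcription factors that give cells their position along the head-to-tail axis. Genes of the same number in different clusters are paralogs. Low numbers lie at the 3′ end of a cluster and are used from the hindbrain backwards, whereas high numbers lie at the 5′ end and are used in the trunk and tail. Cardiac neural crest leaves the hindbrain at the level of the posterior rhombomeres and the first somites, where genes of groups 1 to 5 are known to be in use.

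The study asked what loss of Prdm6, a PR domain protein, does in the Wnt1 lineage, which includes the neural crest. Tissue from the middle of the otic placode to the posterior edge of somite 4 was taken from C57BL/6 embryos at E9.5. Embryos of the WT library were Prdm6+/+; Wnt1-Cre2; ZsGreen1, and Prdm6f/f; Wnt1-Cre2; ZsGreen1 was the genotype for KO, so both carried the Cre transgene and the green reporter. No sort is described, and other lineages were captured in both libraries. By design Wnt1-Cre2 makes Cre only in the Wnt1 lineage, so these should keep their Prdm6, which was not checked here.

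Embryos of a genotype were pooled, with 1 library per genotype and no map from cells to embryos, so differences have no check by replicates and were not tested. Embryo, stage and the exact cut of the tissue cannot be told apart from genotype. The WT library held 11958 cells and 20781384 unique molecular identifiers (UMIs), the KO library 9765 cells and 18936857 UMIs, and 26 cell barcodes occurred in both. Levels are UMIs per 1000000 UMIs of the library or of a cell class (CPM). All intervals are exact, at 95%, and cover counting error only. Prdm6 itself had 104 UMIs in WT and 59 in KO, a log2 ratio of KO over WT of -0.68 (interval -1.17 to -0.21). In the cell classes described below it had 0 UMIs in WT and 2 in KO in migrating neural crest, 0 and 1 in the dorsal neural tube, and 47 and 23 in cells of no class. The lower count in KO is therefore no check of the deletion in neural crest. Reads of the 3′ end may come from a deleted allele too.

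The Hoxa members described lie on chromosome 6 (GRCm38, chr6:52162417-52240854, minus strand). The Hoxb members lie on chromosome 11 (chr11:96271457-96368256), the Hoxc members on chromosome 15 (chr15:102967443-103036852) and the Hoxd members on chromosome 2 (chr2:74691924-74765142), all on the plus strand. Exons of 6 members, Hoxa2 and Hoxa3 among them, overlap some gene on the same strand, so their UMIs are less certain. For 2 of these it is another Hox gene, Hoxc10 for Hoxc5 and Hoxd4 for Hoxd3. Exons of 8 members, Hoxb2, Hoxb3 and Hoxb5 among them, overlap an antisense gene.

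Upstream sequences were found in the RefSeq table (GRCm38.p6) for 15 of the 27 members, in 16 windows of 250 bases that end at the start site. Those of Hoxb1, Hoxb4 and Hoxb8 are shown because these genes come from the front, middle and back of 1 cluster and had log2 ratios of KO over WT of -0.08, -0.18 and -1.0. Capitals mark TTTATG, the core bound by Cdx factors, which are known activators of posterior Hox genes, and TGATNNAT, a site for Hox with Pbx, both searched on either strand. The windows are chr11:96365508-96365757 for Hoxb1, chr11:96318017-96318266 for Hoxb4 and chr11:96281655-96281904 for Hoxb8, all on the plus strand.
Hoxb1: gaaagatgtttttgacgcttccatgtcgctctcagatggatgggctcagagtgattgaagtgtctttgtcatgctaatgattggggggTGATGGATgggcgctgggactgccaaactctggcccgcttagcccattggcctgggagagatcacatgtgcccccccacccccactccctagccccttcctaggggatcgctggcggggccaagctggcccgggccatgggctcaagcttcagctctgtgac
Hoxb4: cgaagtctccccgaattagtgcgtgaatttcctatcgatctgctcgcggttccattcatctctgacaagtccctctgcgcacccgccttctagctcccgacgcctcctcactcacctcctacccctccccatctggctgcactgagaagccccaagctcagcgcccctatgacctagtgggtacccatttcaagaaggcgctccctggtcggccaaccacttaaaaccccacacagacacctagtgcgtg
Hoxb8: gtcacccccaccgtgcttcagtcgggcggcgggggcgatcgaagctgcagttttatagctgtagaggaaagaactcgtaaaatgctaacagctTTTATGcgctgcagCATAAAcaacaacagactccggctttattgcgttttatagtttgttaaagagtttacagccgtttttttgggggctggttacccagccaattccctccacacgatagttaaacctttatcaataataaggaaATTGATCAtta

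The Hoxb8 window held TTTATG at -157 and, on the other strand, at -143, counted in bases from the start site. It held TGATNNAT on the other strand at -11, and the Hoxb1 window held TGATNNAT at -162. No searched motif was in the Hoxb4 window. TTTATG was in 3 of the 16 member windows and in 10.8% of all 32851 windows of the same length, and TGATNNAT was in 3 of 16 and in 7.68%. The direct repeat bound by retinoic acid receptors, searched in its exact consensus form, was in 0 of the 16 member windows and in 3 of all windows. These matches describe letters and say nothing of binding.

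Together the members gave 11336 UMIs in WT, or 545 CPM, and 8064 UMIs in KO, or 426 CPM. The summed ratio, KO over WT, was -0.36 on the log2 scale (interval -0.40 to -0.32). At least 1 Hox UMI was found in 53.2% of WT cells and 48.9% of KO cells. These shares were 39.3% and 33.2% once each cell had been thinned to 1000 UMIs, a step that left out 1361 WT and 125 KO cells. Genes of groups 1 to 5 made up most of this signal in both libraries, and the genes with most UMIs were Hoxb2, Hoxb3 and Hoxa3. UMIs were not scaled for gene length, since the libraries tag the 3′ end, and levels of different genes also depend on how well each end is captured.

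**Figure D1:**
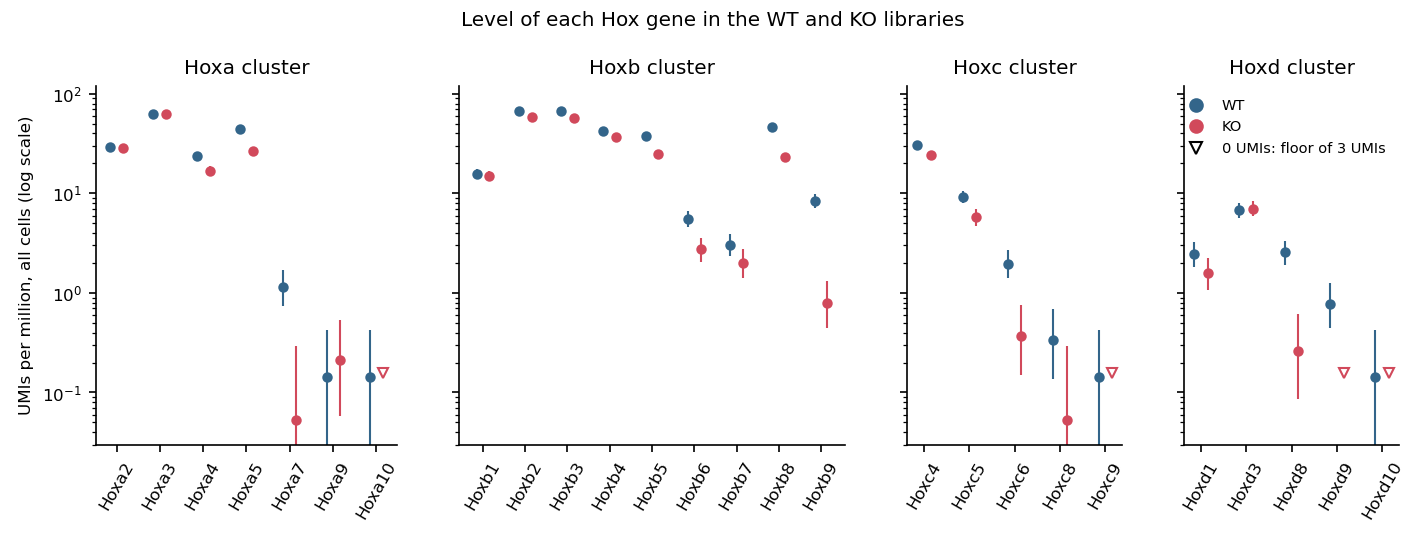
Each point is the level of 1 Hox gene described here over all cells of the WT (blue) or KO (red) library in CPM on a log scale, with its exact 95% counting interval, and open triangles mark the floor of 3 UMIs where 0 UMIs were seen. WT and KO points lie close together for Hoxa2, Hoxa3 and Hoxb1 to Hoxb4 and lie further apart for Hoxa5, Hoxb5, Hoxb6, Hoxb8, Hoxb9, Hoxc5, Hoxc6 and Hoxd8.

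Group 1 genes, the most anterior, are known for patterning the hindbrain around rhombomere 4. Hoxb1 had 326 UMIs (15.7 CPM) in WT and 282 (14.9 CPM) in KO, and the interval of its log2 ratio, -0.31 to 0.16, includes 0. Hoxd1 was scarce, with 51 UMIs in WT and 30 in KO.

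Group 2 holds Hoxa2, known as the selector gene of the second pharyngeal arch, and Hoxb2. Hoxa2 had 613 UMIs (29.5 CPM) in WT and 544 (28.7 CPM) in KO. Hoxb2 had 1405 (67.6 CPM) and 1102 (58.2 CPM). The intervals of the Hoxa2 level overlapped between the libraries, and those of Hoxb2 lay apart by a log2 ratio of -0.22 (interval -0.33 to -0.10).

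Group 3 genes are known for the third pharyngeal arch and the nerves and arteries near it. Hoxa3 had 1311 UMIs in WT and 1201 in KO, and its level was the same in both within counting error, at 63.1 and 63.4 CPM. Hoxb3 had 1394 UMIs (67.1 CPM) and 1075 (56.8 CPM), a log2 ratio of -0.24 (interval -0.36 to -0.12). Hoxd3 had 140 and 133 UMIs (6.74 and 7.02 CPM).

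Groups 4 and 5 mark the posterior hindbrain, the first somites and the lateral mesoderm at their level. Hoxa4 had 495 UMIs (23.8 CPM) in WT and 319 (16.8 CPM) in KO, Hoxb4 had 872 (42.0 CPM) and 703 (37.1 CPM), and Hoxc4 had 635 (30.6 CPM) and 462 (24.4 CPM). All 3 group 4 genes were lower in KO, with log2 ratios of -0.50, -0.18 and -0.32, each interval below 0. They are set beside a median log2 ratio of -0.06 over all genes, which lay lower than the ratios of Hoxa2 (-0.04), Hoxa3 (0.0077) and Hoxd3 (0.06). The differences of the group 5 genes were larger.

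Hoxa5, known for its part in the lung, trachea and cervical skeleton, had 912 UMIs (43.9 CPM) in WT and 511 (27.0 CPM) in KO, a log2 ratio of -0.70 (interval -0.86 to -0.54). Hoxb5, which acts in vagal neural crest and the gut nerves, had 776 UMIs (37.3 CPM) and 469 (24.8 CPM), a log2 ratio of -0.59 (interval -0.76 to -0.43). Hoxc5 had 191 and 109 UMIs (9.19 and 5.76 CPM), a log2 ratio of -0.68 (interval -1.03 to -0.33). The WT and KO intervals of the level did not overlap for any of the 3 genes.

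Groups 6 to 10, which pattern the thorax and beyond, had few UMIs except for Hoxb8. Hoxb8 had 977 UMIs (47.0 CPM) in WT and 444 (23.4 CPM) in KO, a log2 ratio of -1.0 (interval -1.17 to -0.84). Its neighbour Hoxb9 had 175 UMIs (8.42 CPM) in WT and 15 (0.792 CPM) in KO, a log2 ratio of -3.41 (interval -4.28 to -2.65). Of the 20 members with at least 30 UMIs, Hoxb9 had the lowest ratio, and the interval of Hoxd8 (-4.95 to -1.96) overlapped it.

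Hoxb6 had 116 UMIs in WT and 52 in KO (5.58 and 2.75 CPM). Hoxb7 had 63 and 38 UMIs (3.03 and 2.01 CPM), and the interval of its log2 ratio, -1.22 to 0.0080, includes 0. Hoxc6 had 41 and 7 UMIs, and Hoxd8 had 53 and 5. The remaining 7 members had under 30 UMIs over both libraries, and all but Hoxa9 had more in WT, the larger library, than in KO. The share of all genes this scarce with more UMIs in WT was not computed. Hoxa7 had 24 UMIs in WT and 1 in KO, Hoxd9 had 16 and 0, a log2 ratio of -2.28 or lower against a floor of 3 UMIs, Hoxc8 had 7 and 1, Hoxa9 had 3 and 4, and Hoxa10, Hoxc9 and Hoxd10 had 3 each in WT and 0 in KO. A floor of 3 UMIs, the limit at 95% on 1 side, was used for a count of 0, and ratios are left out where neither library had more than that.

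Ratios were counted for the 20 members with at least 30 UMIs over both libraries. Of these, 10 were at least 1.5-fold lower in KO, against 4.89% of all 13801 genes so counted, and 0 were at least 1.5-fold higher, against 1.71% of all genes. The 10 were Hoxa5, Hoxb5, Hoxb6, Hoxb7, Hoxb8, Hoxb9, Hoxc5, Hoxc6, Hoxd1 and Hoxd8. The median log2 ratio was -0.55 over the members and -0.06 over all genes. Hoxb5, Hoxb7 and Hoxd1 lay close to the threshold, and with either scaling that sets the bulk of genes to no change the count was 7 and did not hold them. With the gated classes weighted equally it was also 7, without Hoxa5 (-0.36), Hoxb6 (-0.33) and Hoxc5 (-0.49). The share of all genes past 1.5-fold was not recomputed for these settings, so these counts have no background. Hoxb8, Hoxb9, Hoxc6 and Hoxd8 were in each of these counts.

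The difference was larger in groups 5 to 9 than in groups 1 to 4. Summed by paralog group, the log2 ratio was -0.22 for group 1, -0.16 for group 2, -0.11 for group 3, -0.30 for group 4, -0.65 for group 5, -1.28 for group 6, -1.02 for group 7, -1.07 for group 8 and -3.24 for group 9. Over blocks, groups 1 to 3 had 287 CPM in WT and 260 in KO, a log2 ratio of -0.14 (interval -0.20 to -0.09). Groups 4 and 5 had 187 and 136 CPM, -0.46 (interval -0.53 to -0.39), and groups 6 to 10 had 71.4 and 29.9 CPM, -1.25 (interval -1.40 to -1.11). The 3 block intervals do not overlap.

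By cluster, Hoxb gave 53.8% of Hox UMIs in WT and 51.8% in KO, Hoxa 36.1% and 38.9%, Hoxc 7.74% and 7.18%, and Hoxd 2.32% and 2.08%. The log2 ratio was -0.25 for Hoxa (interval -0.32 to -0.18), -0.41 for Hoxb (-0.47 to -0.36), -0.46 for Hoxc (-0.62 to -0.31) and -0.51 for Hoxd (-0.80 to -0.23). All 4 clusters were lower in KO, and the interval of Hoxa touched on those of Hoxc and Hoxd but lay apart from that of Hoxb.

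Across the 20 members counted, the log2 ratio and the paralog number had a Spearman rho of -0.77 and a Pearson r of -0.75. This is a description over genes of the same 2 libraries, which share cells and, within a cluster, chromatin, and not over replicates.

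**Figure D2:**
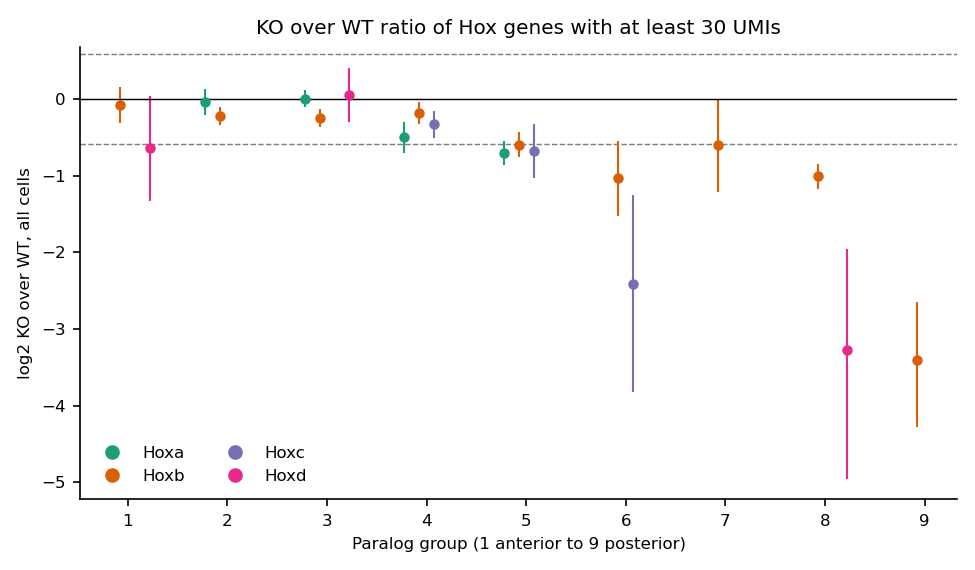
Each point is the log2 ratio of KO over WT for 1 of the Hox genes with at least 30 UMIs, placed by paralog group and coloured by cluster, with its exact 95% counting interval, and dashed lines mark 1.5-fold. Points of groups 1 to 4 lie between -0.50 and 0.06, apart from the thinly counted Hoxd1 (-0.63), and points of groups 5 to 9 lie at -0.59 or below.

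A more anterior make-up in KO was seen inside each cluster. The mean paralog number, weighted by UMIs, summarizes it, and a lower number means a more anterior make-up. Over all members it was 3.77 in WT (counting SE 0.019) and 3.37 in KO (0.019), a difference of -0.40. It was 3.09 and 2.91 within Hoxa, 4.13 and 3.62 within Hoxb, 4.36 and 4.22 within Hoxc, and 4.06 and 2.79 within Hoxd. It was lower in KO in all 4 clusters, and also with Hoxb8 left out (3.37 and 3.10) or Hoxb9 left out (3.69 and 3.36). The difference was widest in Hoxd, which had the fewest UMIs.

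Each cell usually held a single UMI of a given Hox gene, but Hoxb8 was an exception. WT cells with Hoxb8 had 1.64 Hoxb8 UMIs on average and up to 14, whereas the mean was 1.00 to 1.14 for each other member in WT. In KO, Hoxb8 cells had 1.53 UMIs on average and up to 7. After thinning, 3.69% of WT cells (interval 3.34 to 4.07) and 1.90% of KO cells (1.64 to 2.19) had Hoxb8, with 1.34 and 1.15 UMIs per such cell. The intervals of the shares did not overlap, and the means per positive cell carry no interval.

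Cells were next gated into classes by markers that include no Hox gene. Of 18 classes, 12 had at least 50 cells in each library and were compared, and they held 36.3% of WT cells and 31.3% of KO cells. Known markers were among the leading genes of the classes, such as Sox10, Foxd3 and Erbb3 for migrating neural crest, Sox1, Sox3 and Pax6 for neural tube progenitors and Gata4, Gata5 and Foxf1 for splanchnic mesoderm. The leading genes of the WT endoderm gate also held Ttr, Rbp4, Afp and Apoa2, of yolk sac and early liver, and of these only Ttr was among those of KO. Those of the WT floor plate gate held T and Car3. T, a notochord and tail bud gene, had 62 UMIs there in WT and 0 in KO. Car3 had 64 and 2 UMIs. The part of either set of genes in the WT values of its gate was not tested. Between 4.17% and 80.6% of the cells of a class lay at the smallest number or margin of markers that the gate accepts, so class edges are soft.

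Erythroid cells were used as the background, since RNA released by other cells can give UMIs in any droplet. Free RNA itself was not measured here. Erythroid cells are not known to use Hox genes at this level, yet after thinning 21.1% of 582 WT erythroid cells and 15.5% of 232 KO erythroid cells had a Hox UMI, at a median of 1945 and 2367 UMIs per cell before thinning. Their Hox level was 238 CPM in WT and 178 in KO, and that of cardiac muscle cells was close, at 242 and 203 CPM. In cardiac muscle 0 members lay above the erythroid level with intervals apart, in either library, so Hox values of that class are not read as expression. The background differed between the libraries too. Of 6 members counted in erythroid cells, Hoxa5, Hoxb2 and Hoxb5 were at least 1.5-fold lower in KO, against 11.4% of all genes there, and Hoxa3 was higher, against 4.42%. The interval of the log2 ratio lay below 0 for Hoxb2, with 52 UMIs in WT against 10 in KO (-2.42 to -0.28), and included 0 for Hoxa5, Hoxb5 and Hoxa3 (-0.33 to 1.49). In the neural classes, the neural crest and the splanchnic mesoderm the summed level was 645 to 1238 CPM in WT and 538 to 897 CPM in KO.

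**Figure D3:**
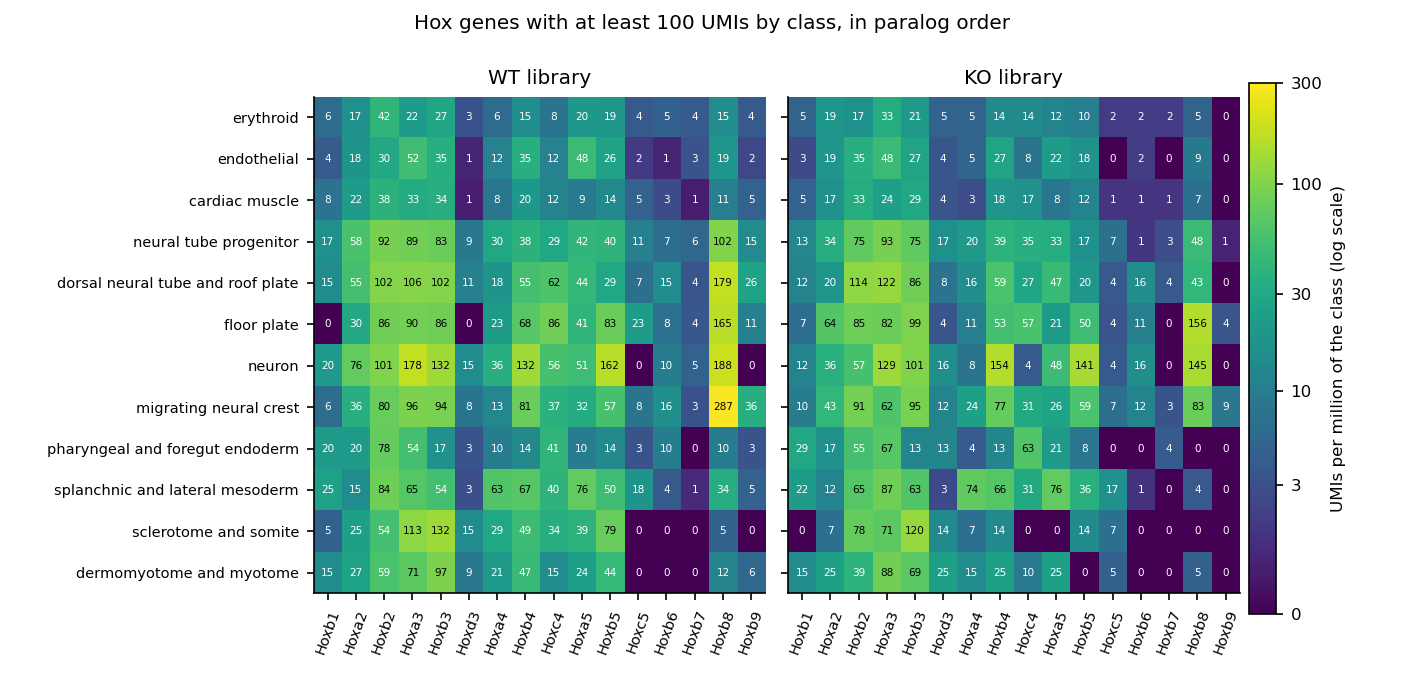
Colour and printed number give the level of each Hox gene described here with at least 100 UMIs, in CPM, for 12 marker-gated classes (rows) and genes in paralog order (columns), in WT at left and KO at right. The erythroid row serves as the background, and the Hoxb8 column is brightest in the neural classes and the migrating neural crest, where it reaches 287 in WT.

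Migrating neural crest cells, marked by Sox10, Foxd3 and Erbb3, numbered 249 in WT and 196 in KO. In WT, Hoxb8 was their leading Hox gene, with 177 UMIs, or 287 CPM (interval 247 to 333), against 15.3 CPM in erythroid cells. In KO it had 48 UMIs, or 82.6 CPM (interval 60.9 to 110), a log2 ratio of -1.80 (interval -2.29 to -1.33). The ratio was -2.59 with 1 raised marker more in the gate and -3.16 with a gate on thinned cells. After thinning, 14.5% of WT and 4.59% of KO crest cells had Hoxb8, against 1.37% and 1.29% of erythroid cells, and before thinning 20.9% and 11.2% at a median of 2422 and 2981.5 UMIs per cell. Hoxb9 was lower in KO too, at 22 UMIs in WT and 5 in KO, a log2 ratio of -2.05 (interval -3.81 to -0.62).

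The anterior and middle Hox genes of the crest cells stood closer together. Hoxb4 stood at 81.2 CPM in WT and 77.4 in KO, and Hoxb5 at 56.8 and 58.5 CPM. The interval of the log2 ratio was -0.68 to 0.54 for Hoxb4 and -0.68 to 0.77 for Hoxb5, and both intervals include 0. Hoxa3 was lower in KO, with 59 UMIs in WT and 36 in KO (interval of the log2 ratio -1.27 to -0.0065). Of the 10 members counted in this class, 2 were at least 1.5-fold lower, against 6.87% of all genes there, and 0 were higher, against 5.7%. The mean paralog number was 5.05 in WT, the highest of the 12 classes, and 3.92 in KO.

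Neural tube progenitors numbered 881 in WT and 726 in KO. Hoxb2 stood at 92.4 CPM in WT and 74.5 in KO, Hoxa3 at 89.0 and 92.6, and Hoxb3 at 82.7 and 74.5, all above the erythroid level. Hoxb8 had 147 UMIs in WT and 66 in KO (102 and 47.8 CPM), a log2 ratio of -1.10 (interval -1.54 to -0.67). Hoxb5 had 58 and 23 UMIs, a log2 ratio of -1.28 (interval -2.04 to -0.56), and Hoxb9 had 21 and 1.

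Hoxa2 also differed in these progenitors, at 57.7 CPM in WT and 34.0 in KO (interval of the log2 ratio -1.31 to -0.23). Of 13 members counted, 3 were at least 1.5-fold lower, against 6.97% of all genes in the class, namely Hoxa2, Hoxb5 and Hoxb8. Hoxd3 was at least 1.5-fold higher, against 3.51% of all genes, with 13 UMIs in WT and 23 in KO, but its interval, -0.16 to 1.99, includes 0. The mean paralog number was 3.98 in WT and 3.51 in KO, a difference of -0.47. Classes at or near the background level moved in the same direction, by -0.35 in erythroid, -0.47 in endothelial and -0.29 in cardiac muscle cells, so a difference of that size is not particular to the progenitors.

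In the dorsal neural tube, the source of the crest, Hoxb8 had 49 UMIs in WT and 11 in KO (179 and 43.2 CPM), a log2 ratio of -2.05 (interval -3.14 to -1.09). Hoxb9 had 7 UMIs in WT and 0 in KO. Hoxb2, at 102 and 114 CPM, and Hoxa3, at 106 and 122 CPM, were not lower in KO. The cells numbered 131 in WT and 115 in KO, so single genes here rest on few UMIs.

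In level, Hoxb8 stood closer between the libraries in floor plate cells and neurons than in the migrating neural crest. It had 44 UMIs in each floor plate gate, 165 CPM in WT and 156 in KO, with an interval of the log2 ratio of -0.72 to 0.56. In neurons it had 37 UMIs in WT and 36 in KO (188 and 145 CPM, interval -1.07 to 0.33). For both classes the interval lay above that of the migrating neural crest, with no overlap, but it overlapped that of neural tube progenitors. These intervals take UMIs as independent, whereas the 177 Hoxb8 UMIs of WT crest lay in 52 cells, so their width is understated. Before thinning, Hoxb8 was in 20.9% of WT and 11.2% of KO crest cells. The shares were 15.9% and 9.65% in neurons and 17.7% and 15.6% in floor plate cells. After thinning, 15.1% of WT and 8.26% of KO neurons had Hoxb8, with overlapping intervals, as did 9.66% and 10.9% of floor plate cells. The floor plate gate held 62 of the 193 T UMIs of WT.

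Neurons had the highest summed Hox level of the 12 classes, 1238 CPM in WT (interval 1087 to 1403) and 897 in KO (783 to 1023). Hoxb4 and Hoxb5 had their highest level in this class in both libraries, at 132 and 162 CPM in WT and 154 and 141 CPM in KO. For both genes the interval overlapped that of the class next in order in WT and lay apart from it in KO. Hoxc4 had 11 UMIs in WT against 1 in KO (interval of the log2 ratio -9.22 to -1.01). The mean paralog number was 4.14 in WT and 4.30 in KO, the only class in which it was higher in KO, by 0.16 with counting SEs of 0.13 in each library. With cells thinned to 1000 UMIs the difference was -0.20, so its direction turned.

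**Figure D4:**
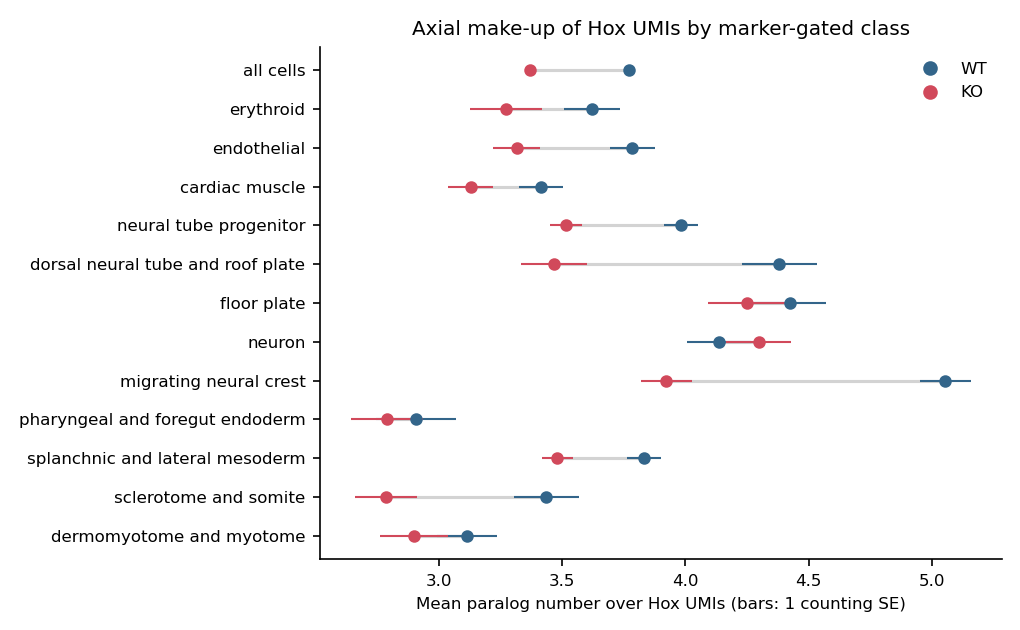
Points give the mean paralog number over Hox UMIs in WT (blue) and KO (red) for all cells and 12 marker-gated classes, bars are 1 counting SE and grey lines join the libraries. The KO point lies to the left of the WT point in all classes except neurons, an order that turned for neurons with thinned cells, and the gap is widest in migrating neural crest (5.05 against 3.92).

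The splanchnic and lateral mesoderm, outside the Wnt1 lineage, had its own Hox make-up. Hoxa5 stood at 76.3 CPM in WT and 75.6 in KO, and Hoxa4 was at 63.2 and 74.3 CPM. Both genes had their highest level here in both libraries, with neurons next for Hoxa5 and intervals that overlap. Neither differed between the libraries beyond counting error, since the interval of the log2 ratio was -0.53 to 0.50 for Hoxa5 and -0.31 to 0.77 for Hoxa4.

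In the same cells Hoxb8 had 34 UMIs in WT and 3 in KO (34.1 and 3.91 CPM), a log2 ratio of -3.13 (interval -5.47 to -1.46). With 1 raised marker fewer in the gate it was -1.41 (interval -2.42 to -0.49). The KO level was no higher than that of erythroid cells. Of 12 members counted, Hoxb8 alone was at least 1.5-fold lower, against 7.22% of all genes in the class, and 0 were higher, against 4.5%. Groups 6 to 10 together had 56 UMIs in WT and 7 in KO, whereas groups 4 and 5 had 314 and 231.

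Groups 6 to 10 were at 29.8 CPM in WT erythroid cells and 8.65 in KO, so the background level itself was lower in KO. Endothelial cells, at 31.3 and 12.5 CPM, and cardiac muscle, at 22.2 and 9.92 CPM, did not stand above it. The log2 ratio of groups 6 to 10 was -1.32 in endothelial cells (interval -2.32 to -0.40), -1.16 in cardiac muscle (interval -2.16 to -0.25) and -1.79 in erythroid cells (interval -3.49 to -0.44). What these 3 ratios reflect was not tested. In WT, 6 classes stood above the erythroid level with intervals apart, namely the 5 neural and crest classes and the splanchnic mesoderm, and the interval of the ratio lay wholly below 0 in 4 of them, all but floor plate and neurons. The level was lower in KO in 12 of 12 classes, background classes included, and in 8 of 9 with 1 marker more of margin in the gate. Over the 12, the interval lay below 0 in 7. In sclerotome (4 UMIs in WT and 0 in KO), endoderm (7 and 1) and dermomyotome (7 and 1) the counts also allow equal levels, as they do in floor plate and neurons. Endothelial Hoxa5 had 58 UMIs in WT and 25 in KO, a log2 ratio of -1.09 (interval -1.83 to -0.39).

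Somite classes had few cells, and only 2 members in each reached 30 UMIs. Of those, Hoxa3 was at least 1.5-fold lower in KO in sclerotome, against 9.55% of all genes there, with 23 UMIs in WT and 10 in KO and an interval of the log2 ratio, -1.91 to 0.45, that includes 0. In sclerotome 0 members were higher, against 8.92% of all genes. Below that minimum, group 4 genes together had 23 and 3 UMIs in sclerotome (interval -4.79 to -0.69) and group 5 genes 24 and 3 (-4.85 to -0.76). Hoxb5 there had 16 UMIs in WT against 2 in KO (interval of the log2 ratio -5.64 to -0.39), and Hoxa5 had 8 and 0. In dermomyotome Hoxb5 had 15 UMIs in WT and 0 in KO, which against a floor of 3 UMIs in the class is a log2 ratio of -1.59 or lower. Hoxb3 was at 132 CPM in WT sclerotome and 120 in KO, with intervals that overlapped those of neurons. Hoxd1 was highest in dermomyotome in both libraries, with 10 UMIs in WT and 4 in KO and 0 in erythroid cells of either library. Its interval overlapped that of the dorsal neural tube in both libraries and lay apart from the erythroid interval only in WT.

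The pharyngeal and foregut endoderm was the most anterior class in WT, with a mean paralog number of 2.91, and stood at 2.79 in KO. Hoxc4 stood at 40.6 CPM in WT and 62.9 in KO, above the erythroid level with intervals apart in both libraries. The interval of its log2 ratio, -0.56 to 1.86, includes 0.

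Over the 12 classes, groups 1 to 3 had log2 ratios between -0.61 and 0.07, with intervals below 0 in neurons (-1.02 to -0.20) and neural tube progenitors (-0.40 to -0.04). Groups 4 and 5 had 141 UMIs in WT and 130 in KO in migrating neural crest, a ratio of -0.03 (interval -0.39 to 0.32). They had 47 and 6 in sclerotome, -2.45 (interval -3.96 to -1.22), and 162 and 90 in endothelial cells, -0.73 (interval -1.12 to -0.35). The intervals for dermomyotome (-1.85 to -0.11) and neural tube progenitors (-0.59 to -0.06) also lay below 0. In the floor plate gate they had 86 and 55, again -0.72 (interval -1.24 to -0.22), while groups 6 to 10 had 52 and 48.

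The anterior genes had patterns of their own. Hoxa3 was highest in neurons in both libraries, at 178 CPM in WT and 129 in KO, and Hoxb2 in the dorsal neural tube, but the intervals overlapped those of the class next in order. Hoxa2 led in neurons in WT (15 UMIs, 76.1 CPM) and in the floor plate gate in KO (18 UMIs, 64.0 CPM), but the WT and KO intervals overlapped in each of these classes. Hoxb1 was above its erythroid level with intervals apart only in the splanchnic mesoderm of WT, at 25.1 CPM against 6.45 CPM, and had 22.1 CPM there in KO.

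Seen per cell, the most posterior paralog group found in a thinned cell was 6 or higher in 5.78% of WT cells (interval 5.35 to 6.25) and 2.43% of KO cells (2.13 to 2.75), against 2.75% and 1.72% of erythroid cells. It was 4 or 5 in 14.7% and 11.9%, and 1 to 3 in 18.8% of cells in each library. Before thinning, groups 6 to 10 were seen in 7.95% of WT and 3.86% of KO cells. In migrating neural crest the thinned shares were 17.3% and 6.63%, and in neural tube progenitors 10.5% and 3.75%.

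**Figure D5:**
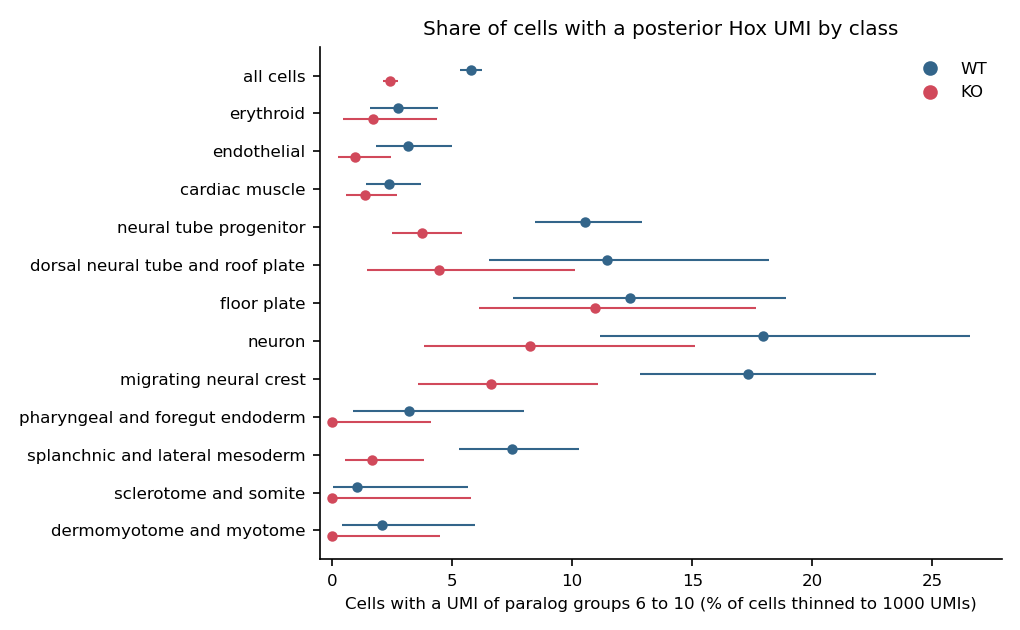
Points give the percent of cells, each thinned to 1000 UMIs, that hold a UMI of paralog groups 6 to 10 in WT (blue) and KO (red), with exact 95% binomial intervals, for all cells and 12 marker-gated classes. The intervals of WT and KO are apart for all cells, neural tube progenitors, migrating neural crest and splanchnic mesoderm, and erythroid cells mark the background (2.75% in WT and 1.72% in KO).

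Some genes of groups 5 to 9 were higher in cells that held Hoxb8, with 5 classes pooled. These classes differ in both. In WT, 15.1% of thinned neurons held Hoxb8 against 7.32% of neural tube progenitors, and 15.1% against 4.11% held Hoxb5. The part of class make-up was not tested, and no comparison was made within a class. Among thinned cells of the 5 neural and crest classes in WT, 135 held Hoxb8 and 1274 did not. Hoxb5 was at 185 CPM (interval 120 to 273) in the former and 40.0 CPM (29.8 to 52.6) in the latter, Hoxa5 at 163 and 29.8 CPM, Hoxb6 at 51.9 and 6.28 CPM, and Hoxb9 at 74.1 and 14.1 CPM. These were the 4 of 13 other members of groups 5 to 9 with intervals apart. The share of all genes with intervals apart was not computed, so this count has no background. Hoxa3, at 88.9 and 104 CPM, and Hoxb2, at 74.1 and 81.6 CPM, had overlapping intervals.

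In KO, 59 such cells held Hoxb8 and 1206 did not. Hoxb5 was at 305 CPM (interval 181 to 482) in the former and 25.7 CPM (17.5 to 36.5) in the latter, and it was the 1 member of the 13 with intervals apart. Here too the classes were pooled, and the share of all genes was not computed. Hoxa5, at 102 CPM (37.3 to 221) and 35.7 CPM (25.8 to 48.0), and Hoxb6, with 3 and 7 UMIs, overlapped. Hoxb9 had 0 UMIs in the 59 cells, for which the floor is 3, and 2 in the others.

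Genes that act with or upstream of Hox genes were counted over all cells from fixed lists. Of the 9 TALE cofactors, the Pbx, Meis and Pknox homeodomain proteins that bind DNA with Hox proteins, 0 were past 1.5-fold in either direction, against 4.89% of all genes lower and 1.71% higher. Of the 13 counted genes of retinoic acid supply and reception, a pathway that turns on 3′ Hox genes, 0 were past it too. Lists this short hold few or no such genes at those shares, so the counts say little of either list. Their median log2 ratios were -0.15 and -0.01.

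Of 15 counted direct regulators of Hox genes, 1 was at least 1.5-fold lower and 1 at least 1.5-fold higher, against 4.89% and 1.71% of all genes. Egr2, the Krox20 factor of rhombomeres 3 and 5 that activates Hoxa2 and Hoxb2, had 42 UMIs in WT and 70 in KO, a log2 ratio of 0.87 (interval 0.30 to 1.46). The Polycomb genes Ezh2, Eed, Suz12, Bmi1, Pcgf2 and Cbx2, which keep Hox genes silent, were all within 1.5-fold. Outside the rule for naming, and chosen after their values were seen, Cdx1 had 88 UMIs in WT and 93 in KO, and Cdx2, too scarce to be counted, had 13 and 1.

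Genes of the tail bud and its caudal progenitors, which lie behind the dissected tissue, were at least 1.5-fold lower in KO for 2 of 7 counted, against 4.89% of all genes. T had 193 UMIs in WT and 51 in KO, a log2 ratio of -1.79 (interval -2.26 to -1.33), and Fgf8 had 145 and 87, -0.60 (interval -1.0 to -0.21). Of the T UMIs, 62 in WT and 0 in KO lay in the floor plate gate and 95 and 41 in cells of no class, and the gate for caudal progenitors took 2 WT cells and 1 KO cell. At the other end, of 7 counted factors of the Hox-free head, 2 were lower and 0 higher, against the same 4.89% and 1.71%. Lhx2 had 154 and 80 UMIs, a log2 ratio of -0.81 (interval -1.22 to -0.41). Among the 7 tail bud genes the median log2 ratio was -0.33, among the 7 head genes -0.43. The part of either in the Hox result was not tested.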

How the data were processed

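Single-cell libraries (10x Chromium 3′ v3) of E9.5 C57BL/6 mouse embryos were measured, 1 WT and 1 KO. Per the methods and the submitters' processing notes, the authors demultiplexed pooled embryos by MULTI-Seq and quantified UMIs with Cell Ranger 1.3.1. The notes name mm10, whereas a combined human and ZsGreen1 reference is written in the methods, and the gene symbols in the files are those of mouse. They removed cells with extreme UMI totals, rare genes and mitochondrial and ribosomal UMIs, and scaled and square-root transformed the counts of each cell in Scanpy. The deposited values are this square-root signal. The methods name DoubletFinder and the upper UMI limit for excluding doublets, and no further doublet caller was run here. No column for ZsGreen1 or Cre was used here.

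UMIs were recovered by squaring each value and dividing by the smallest nonzero square of the cell, which gave whole numbers (within 0.01) for 100% of nonzero values. Depth was a median of 1597 UMIs per cell in WT (533 to 4464) and 1703 in KO (828 to 4588). The 26 barcodes found in both libraries were kept in each.

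Levels are UMIs per 1000000 UMIs (CPM) with exact Poisson intervals, ratios have exact conditional binomial intervals and shares of cells Clopper-Pearson intervals, all at 95% and for counting error only. With 1 library per genotype no test was made. A gene was counted with at least 30 UMIs over both libraries and called past 1.5-fold. A count of 0 was given a floor of 3 UMIs. For shares, each cell was also thinned to 1000 UMIs, without cells below that total.

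A cell entered a class when at least 3 of its markers were raised (Poisson tail probability under 0.2 given the mean over cells and the depth of the cell) and when it had at least 1 more than for any other class. These thresholds were set after the data were seen. Classes needed 50 cells in each library. Gene coordinates are from GENCODE on GRCm38 and upstream sequences from RefSeq on GRCm38.p6. Sums over members hold all 27, and 1 member and 2 genes of the related lists are not reported here by name. Genes of the 5 related lists were named with at least 30 UMIs and a ratio past 1.5-fold, and exceptions are stated where they occur. Members and lists were chosen with earlier results of these data known. The computations were tested on simulated data and run in Python 3.11.15 with numpy 2.4.6 and scipy 1.17.1, and drawn with matplotlib 3.10.9. Alternatives covered scaling, thinning, count minimum, fold, class weights, overlapping genes, cells with most UMIs and the gate.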

Additional observations from a re-analysis of the deposited data

Results flagged for a closer look

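The mean paralog number moved in opposite directions in 2 cell classes. KO minus WT was -1.13 in migrating neural crest (5.05 in WT and 3.92 in KO, counting SE 0.104 and 0.102) and 0.16 in neurons (4.14 and 4.30, counting SE 0.130 and 0.132). The difference between the classes was not tested, because each genotype has 1 library, and the neuron value lies within its counting error. With cells thinned to 1000 UMIs it was -0.20, so the opposite direction did not hold there, and migrating neural crest was at -1.49.

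The antisense transcript Hoxb3os, which is not a member, was seen above WT in KO, with 956 UMIs in WT and 1011 in KO. Its log2 ratio of KO over WT was 0.21 (interval 0.09 to 0.34), while Hoxb2 and Hoxb3, whose exons it overlaps on the other strand, had ratios of -0.22 and -0.24.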

How the results depend on the processing

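Of 70 values recomputed for the comparisons, 50 stayed within the spread or count range allowed and 20 moved, none of these 70 changing sign. Of 200 values for single genes and classes, 11 moved and 10 had the other sign, for Hoxa2, Hoxa3, Hoxb1, Hoxd3, floor plate Hoxb8 and the neuron mean, whose intervals all include 0. The 10 of 20 members lower in KO became 16 of 27 with a minimum of 1 UMI, 4 of 14 with a minimum of 200 UMIs and 5 of 20 with a fold of 2, each by the construction of the setting. The share of all genes lower in KO was then 12.3% (1 UMI, a share computed after seeing the data), 2.02% (200 UMIs) and 1.26% (fold of 2), and higher 7.27%, 0.371% and 0.29%. With gated classes weighted equally 1 member, Hoxd3, was higher, and Hoxa5, Hoxb6 and Hoxc5 were no longer 1.5-fold lower. The share of all genes was not recomputed for this weighting. TMM and median-of-ratios scaling gave -0.084 and -0.080 for groups 1 to 3 and -0.30 and -0.29 for all members. Thinning gave -1.44 for groups 6 to 10, -0.48 for the mean paralog number over all cells and -1.49 in migrating neural crest, where 1 raised marker more gave -1.53 and a gate after thinning -1.73. With 1 raised marker more, 7 of 8 classes had a lower mean paralog number in KO, and with 1 fewer, an alternative chosen after seeing the data, 13 of 14. The neuron difference turned to -0.20 with thinned cells. Hoxb8, Hoxb9, Hoxc6 and Hoxd8 were lower under every scaling, thinning, weighting and cell filter tried. The cause of these moves, other than by construction, was not tested. No paired analysis was possible because each genotype has 1 library, and for the same reason no replicate could be left out.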

Other observations

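Among the Hox columns that are not members, Hoxaas3 had 149 UMIs in WT and 102 in KO, a log2 ratio of KO over WT of -0.41 (interval -0.79 to -0.04). Hoxb5os, which overlaps Hoxb5 on the other strand, had 81 and 40 UMIs, -0.88 (interval -1.47 to -0.32), and Hoxd3os1 had 31 and 12, -1.24 (interval -2.33 to -0.23). In the floor plate gate Hoxb3os had 18 UMIs in WT and 41 in KO, with a log2 ratio of 1.11 (interval 0.28 to 2.00). Hoxd4-1 had 8 UMIs in each library.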
